A study of Rattus norvegicus with 18 samples.

Results

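The genes described are the 5 genes of the rat DNA methylation machinery whose symbols are Dnmt1, Dnmt3a, Dnmt3b, Dnmt3l and Uhrf1, chosen by symbol from the 32545 gene lines of the expression table. Each had 1 line, and all 5 were among the 14865 genes tested, which had at least 1 RPKM (reads per kilobase of gene, relative to a library's mapped total) in at least 2 libraries. Dnmt3l passed that filter through the epiblast libraries alone, which fixes how it compares with PGC, so outside epiblast its levels are given with no test and counts are over the other 4 genes. RNA was measured in 18 libraries from embryos of the rat strain Crlj:WI, and every library, epiblast included, carried the genotype Prdm14-Venus, a fluorescent reporter of the germ line regulator Prdm14. Epiblast, the pluripotent layer that forms the embryo and its germ line, gave 2 male and 1 female library at embryonic day (E) 7.25 and the same at E7.75. Primordial germ cells (PGC), from which eggs and sperm descend, were sampled on 5 days. They gave 2 libraries a day at E9.5, at E10.5, at E11.5 and also at E12.5, with no sex in the labels, then a pair of libraries from each sex at E15.5. No label says whether the libraries of a group came from separate embryos or pools, so the p-values measure the spread between libraries, which may be technical.

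DNA methylation in mammals marks cytosines that precede guanines (CpG). After replication, Dnmt1 copies the mark to the new strand, and Uhrf1 brings it there by binding DNA that carries the mark on the old strand only; this is maintenance. Dnmt3a and Dnmt3b place the mark at sites that lacked it, which is called de novo methylation, and Dnmt3l, which has no catalytic activity, stimulates them. PGC are known for losing most of their DNA methylation while they migrate and settle in the gonads, and male and female germ cells regain it at different times.

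Taking female E7.75 epiblast as 100%, the relative depth read from the spacing of low values ran from 82.6% to 120.9% for 14 libraries and from 20.7% to 22.9% for the 4 of E10.5 and E11.5. The labelled cell types were checked against their markers. The summed level of 9 germ cell markers, among them Tfap2c and Dazl, was 21.0 to 43.4 RPKM in epiblast and 426 to 1873 RPKM in PGC. From E7.75 epiblast to E9.5, 7 of the 9 passed as higher in limma and 1 as lower, beside 16.3% and 11.3% of all tested genes. Of the 9, 4 passed the filter through PGC libraries alone, which bears on this count. At E9.5 the mean was 0.177 RPKM for Dazl and 1.25 for Ddx4, against 0.283 and 5.89 RPKM at E7.75. At E15.5 the male means of these genes were 1042 and 369 RPKM. Of 8 epiblast markers, 5 were tested, and Fgf5 was listed at 0 in all 18 libraries; Otx2 and Pou3f1 had no line. Most of the list is also used by PGC, and its sum was 2110 to 3198 RPKM in epiblast and 512 to 2608 RPKM in PGC. Markers of mesoderm stood out at E9.5, where 8 genes summed to 944 and 955 RPKM, against 4.63 to 13.5 RPKM in epiblast. Zero values need care in this table, since the housekeeping gene Fau was listed at 0 in all 18 libraries and Hprt1 in 11. So do low values, since Gapdh, another such gene, had a median of 1.02 RPKM and a maximum of 2.08 RPKM. Actb was at 2287 to 6076 RPKM.

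The promoters of 4 of the 5 genes were found in a table of RefSeq transcription starts on the assembly GRCr8, which is not the build of the expression data. They are shown as a description, and their part in the levels of these genes was not tested. Each window holds 250 bases before to 50 bases after a start, 300 bases in all. Uhrf1 has 3 listed starts, and the one shown holds the most CpG; Dnmt3b is not shown. Capitals mark motif matches on either strand: the E2F core (TTCCCGC and its variants TTGGCGC, further TTCGCGC, and further TTGCCGC), the GC box (GGGCGG) and the CCAAT box (CCAAT).
Dnmt1: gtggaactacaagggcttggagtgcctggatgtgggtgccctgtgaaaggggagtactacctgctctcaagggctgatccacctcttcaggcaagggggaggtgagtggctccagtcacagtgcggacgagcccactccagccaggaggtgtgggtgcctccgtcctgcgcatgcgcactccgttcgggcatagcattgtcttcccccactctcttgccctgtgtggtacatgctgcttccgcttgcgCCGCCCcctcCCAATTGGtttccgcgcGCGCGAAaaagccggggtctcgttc
Uhrf1: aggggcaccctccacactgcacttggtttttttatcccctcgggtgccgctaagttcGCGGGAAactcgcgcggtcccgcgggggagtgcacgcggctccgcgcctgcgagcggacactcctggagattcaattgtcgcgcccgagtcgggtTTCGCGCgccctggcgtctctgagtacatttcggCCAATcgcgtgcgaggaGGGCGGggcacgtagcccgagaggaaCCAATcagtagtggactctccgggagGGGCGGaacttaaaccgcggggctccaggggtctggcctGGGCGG
Dnmt3a: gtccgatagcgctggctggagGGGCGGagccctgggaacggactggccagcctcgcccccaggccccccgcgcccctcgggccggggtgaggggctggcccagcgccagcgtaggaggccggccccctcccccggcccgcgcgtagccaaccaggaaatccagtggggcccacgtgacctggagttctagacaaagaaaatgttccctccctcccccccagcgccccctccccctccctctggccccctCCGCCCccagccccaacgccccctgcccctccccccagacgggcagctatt
Dnmt3l: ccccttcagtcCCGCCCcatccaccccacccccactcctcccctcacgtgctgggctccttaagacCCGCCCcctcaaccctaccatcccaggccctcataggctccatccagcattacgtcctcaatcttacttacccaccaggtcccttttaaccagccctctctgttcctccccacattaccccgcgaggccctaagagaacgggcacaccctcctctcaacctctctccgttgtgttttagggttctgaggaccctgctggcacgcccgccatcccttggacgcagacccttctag
The Dnmt1 window, at chr8:27762792-27763091 on the minus strand, held 17 CpG, an E2F core match at base 276, a GC box at base 249, and CCAAT matches on both strands at bases 259 and 262 that overlap each other. The Uhrf1 window, at chr9:1222936-1223235 on the plus strand, held 35 CpG, E2F core matches at bases 58 and 153, 3 GC boxes and 2 CCAAT boxes. Of the other windows of Uhrf1, that at chr9:1222050-1222349 held 1 E2F core match and 13 CpG, and that at chr9:1221813-1222112 held 8 CpG and no such match. Dnmt3a, at chr6:32598352-32598651 on the plus strand, held 21 CpG and 2 GC boxes, and Dnmt3l, at chr20:10628940-10629239 on the minus strand, held 11 CpG and 2 GC boxes. Neither window held a match to the E2F core or the CCAAT box. Across 33469 RefSeq promoter windows of this length, 9.52% held the E2F core, 33.1% the GC box and 37.5% the CCAAT box, and the median number of CpG was 7, with quartiles at 3 and 19. Thus the windows of Dnmt1, Dnmt3a, Dnmt3l and the 3 Uhrf1 starts all lay above the median in CpG. A match is a description of the letters and not evidence that a factor binds there.

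Epiblast held high levels of the de novo genes, and PGC of every age held low ones, while the maintenance genes differed far less. Against epiblast, Dnmt3b was 97.3-fold lower in PGC, Dnmt3a 25.9-fold lower, Uhrf1 3.23-fold lower and Dnmt1 1.43-fold lower. These 4 genes all passed as lower in PGC, a comparison in which 58.5% of all tested genes passed and 26.4% passed as lower. In 3 of the 4 every PGC library lay below every epiblast library, as did 6.07% of all tested genes; the exception was Dnmt1. Without the 2 libraries of E9.5 the same 4 passed, with log2 differences of -0.66 for Dnmt1, -1.76 for Uhrf1, -4.82 for Dnmt3a and -6.80 for Dnmt3b. Bulk RNA cannot tell fewer expressing cells from less RNA per cell, so these cannot be told apart for any of these levels.

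**Figure D1:**
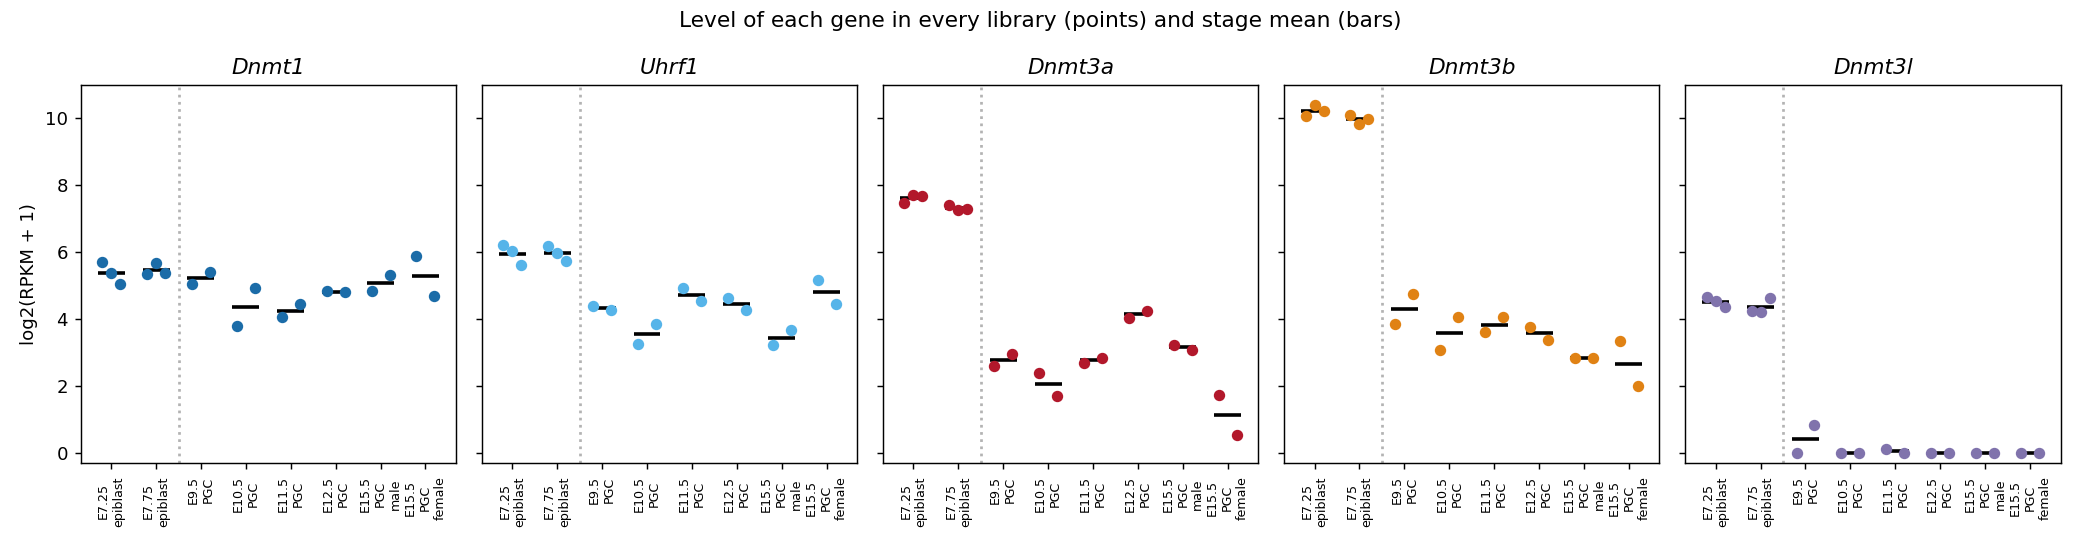
Level of each gene in every library as log2(RPKM + 1) on the vertical axis, with 1 point per library, a bar at the stage mean and a dotted line between epiblast and PGC. Dnmt3a, Dnmt3b and Dnmt3l drop at the dotted line, Uhrf1 drops less, and the Dnmt1 points of epiblast and PGC overlap.

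Dnmt1, the maintenance methyltransferase, was at 51.9, 40.5 and 32.6 RPKM at E7.25 and at 40.2, 50.5 and 40.4 RPKM at E7.75. In PGC it was at 32.5 and 42.0 RPKM at E9.5, at 12.9 and 29.9 at E10.5, at 15.7 and 20.9 at E11.5, and at 27.8 and 27.2 at E12.5. At E15.5 it was at 27.9 and 39.2 RPKM in males and at 58.0 and 24.9 RPKM in females. The lowest 3 libraries were both of E11.5 and 1 of E10.5, and the highest of all was 1 of the 2 female E15.5 libraries. Mean levels were 42.7 ± 7.28 RPKM in epiblast (SD, n = 6) and 29.9 ± 12.2 RPKM in PGC (SD, n = 12), a log2 difference of -0.58 ± 0.20 (SE) on the log2(RPKM + 1) scale used for all fold changes below, with a limma adjusted p of 0.0193. Without the 4 shallow libraries of E10.5 and E11.5 the difference was -0.32, with a limma adjusted p of 0.149. The call was also lost without replicate 1 of male E7.25 epiblast (limma adjusted p of 0.0591) or replicate 2 of male E7.75 epiblast (limma adjusted p of 0.0527). Ordered by mean, the stages ran from E7.75 epiblast (43.7 RPKM) through E7.25 epiblast, female E15.5, E9.5, male E15.5, E12.5 and E10.5 to E11.5 (18.3 RPKM), and no neighbours in this order passed the test.

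Uhrf1, which guides Dnmt1 to newly replicated DNA, was at 73.5, 65.5 and 48.1 RPKM at E7.25 and at 71.8, 62.3 and 52.9 RPKM at E7.75. In PGC its level was 20.04 and 18.5 RPKM at E9.5, 8.69 and 13.5 at E10.5, 29.8 and 22.3 at E11.5, and 23.7 and 18.6 at E12.5. At E15.5 it was 8.34 and 11.7 RPKM in males and 35.5 and 21.0 RPKM in females. Every PGC library lay below every epiblast library, and the PGC libraries of E10.5 and of male E15.5 were the lowest. The mean fell from 62.4 ± 10.1 RPKM (SD, n = 6) to 19.3 ± 8.14 RPKM (SD, n = 12), a log2 difference of -1.74 ± 0.15 with a limma adjusted p of 1.87e-07. In the order of means, female E15.5 (28.3 RPKM) came next to epiblast and below it (limma adjusted p of 0.00286), followed by E11.5, E12.5 and E9.5. E10.5 (11.1 RPKM) and male E15.5 (10.04 RPKM) came last, and below epiblast no step between neighbours passed.

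Dnmt3a, a de novo methyltransferase, was at 177, 208 and 203 RPKM at E7.25 and at 171, 154 and 157 RPKM at E7.75. PGC held 5.13 and 6.77 RPKM at E9.5, 4.26 and 2.31 at E10.5, 5.47 and 6.28 at E11.5, and 15.6 and 17.9 at E12.5. At E15.5 Dnmt3a was at 8.40 and 7.55 RPKM in males and at 2.35 and 0.464 RPKM in females. Among PGC the 2 libraries of E12.5 were the highest and 1 female library of E15.5 the lowest. Mean levels were 178 ± 23.1 RPKM in epiblast (SD, n = 6) and 6.88 ± 5.19 RPKM in PGC (SD, n = 12), a log2 difference of -4.79 ± 0.16 with a limma adjusted p of 1.50e-11. In the order of means, E12.5 (16.8 RPKM) followed both days of epiblast and lay below them (limma adjusted p of 1.33e-06), and male E15.5, E9.5, E11.5 and E10.5 followed with no step between neighbours past the test. Female E15.5 came last at 1.41 RPKM, below E10.5 by limma (adjusted p of 0.0353), although 1 female library overlapped those of E10.5.

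Dnmt3b, the other de novo methyltransferase, reached 1083, 1343 and 1199 RPKM at E7.25 and 1103, 915 and 1019 RPKM at E7.75, the highest levels of the 5 genes. In PGC it was at 13.5 and 26.2 RPKM at E9.5, at 7.52 and 15.8 at E10.5, at 11.2 and 15.9 at E11.5, and at 12.8 and 9.42 at E12.5. At E15.5 it was at 6.15 and 6.27 RPKM in males and at 9.20 and 3.04 RPKM in females. The PGC libraries of different ages overlapped widely, and all lay far below epiblast. Means were 1110.4 ± 148 RPKM in epiblast (SD, n = 6) and 11.4 ± 6.12 RPKM in PGC (SD, n = 12), a log2 difference of -6.63 ± 0.20 with a limma adjusted p of 7.14e-12. Among PGC the mean ran from 19.8 RPKM at E9.5 to 6.12 RPKM in females at E15.5, with E11.5, E10.5, E12.5 and male E15.5 between, and neighbours in this order did not pass. Over wider gaps of age Dnmt3b passed as lower in males of E15.5 than at E9.5 (-1.46 ± 0.40, limma adjusted p of 0.0138; 15.0% of all tested genes passed as lower). In females of E15.5 it passed as lower than at E9.5 (-1.63 ± 0.40, limma adjusted p of 0.00676; 16.3% of all genes) and than at E11.5 (-1.16 ± 0.40, limma adjusted p of 0.0442; 12.1% of all genes). Each of these 3 calls was lost when some single library was left out: without E9.5 replicate 2 the first was -1.004 and the second -1.17, and without female replicate 2 the second was -0.96 and the third -0.49, none of which passed; the first was also lost without either male library.

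Dnmt3l, the cofactor of the de novo enzymes, was at 24.4, 22.6 and 19.5 RPKM at E7.25 and at 18.04, 17.6 and 23.9 RPKM at E7.75. It was listed at 0 in 10 of the 12 PGC libraries, and the other two were 1 library of E9.5 at 0.797 RPKM and 1 of E11.5 at 0.0896 RPKM. Both days of epiblast thus lay above every PGC library. Since a value of 0 can also be a failed estimate, no fold is given.

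Within each library the balance between the 2 kinds of gene was opposite in epiblast and PGC. The summed RPKM of Dnmt1 and Uhrf1 was 80.7 to 125 in epiblast and 21.6 to 93.5 in PGC, while that of Dnmt3a, Dnmt3b and Dnmt3l was 1086 to 1574 in epiblast and 3.50 to 33.7 in PGC. Dnmt1 and Uhrf1 therefore made up 5.37% to 9.41% of the RPKM of the 5 genes in epiblast and 62.6% to 92.9% in PGC. By stage this share was 73.9% and 64.2% at E9.5, 64.7% and 70.5% at E10.5, 73.1% and 66.1% at E11.5, 64.4% and 62.6% at E12.5, 71.3% and 78.7% in males at E15.5, and 89.0% and 92.9% in females at E15.5. The female E15.5 libraries were the highest, and no PGC library came near the epiblast range. These shares and the ratios below are descriptions and were not tested.

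**Figure D2:**
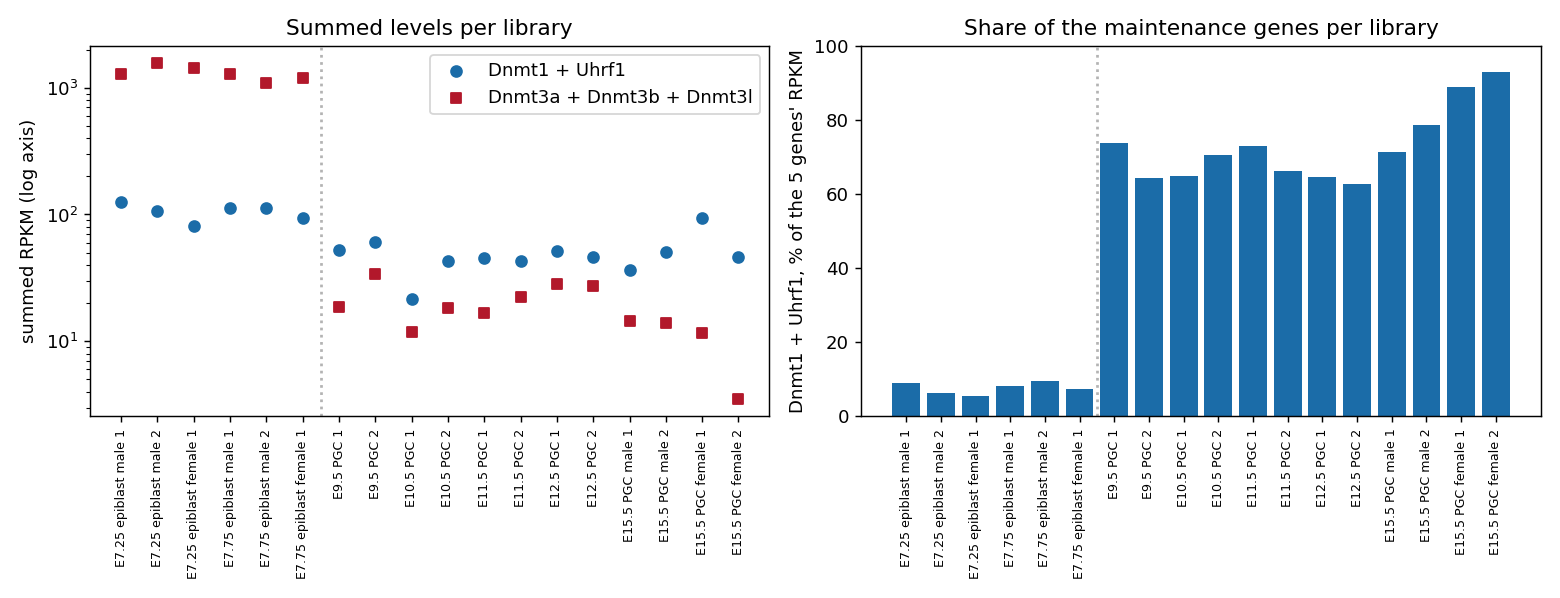
Left, summed RPKM of the maintenance genes (circles) and the de novo genes with Dnmt3l (squares) in each library on a log axis; right, the share of Dnmt1 and Uhrf1 in the RPKM of the 5 genes, in percent. The share is 5.37% to 9.41% in the 6 epiblast libraries and 62.6% to 92.9% in the 12 PGC libraries.

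In epiblast Dnmt3b was 18.1 to 36.8 times the level of Dnmt1 per library, and Dnmt3a was 3.04 to 6.24 times that level. Against Uhrf1 there, Dnmt3b was at 14.7 to 24.9 times its level and Dnmt3a at 2.38 to 4.22 times. In PGC Dnmt1 was the higher in every library. It was at 1.31 to 8.20 times the level of Dnmt3b and at 1.52 to 53.6 times that of Dnmt3a. Uhrf1 was at 0.708 to 6.93 times Dnmt3b and 0.993 to 45.3 times Dnmt3a, so its order was not turned in every library. It was below Dnmt3b in E9.5 replicate 2 (0.708) and E10.5 replicate 2 (0.850), and just below Dnmt3a in male E15.5 replicate 1 (0.993). The ratios of 53.6 and 45.3 are of female E15.5 replicate 2, where Dnmt3a was at 0.464 RPKM. With 1 added to each RPKM, the log2 ratio of Dnmt1 to Dnmt3a was 4.14 in both female E15.5 libraries. The pair of de novo enzymes also shifted against each other. Dnmt3b was 5.90 to 6.51 times the level of Dnmt3a in epiblast. In PGC it was at 2.62 and 3.87 times that level at E9.5, 1.77 and 6.84 times at E10.5, and 2.05 and 2.53 times at E11.5. The value of 6.84 lay above the epiblast range. It was at 0.525 and 0.817 times that level at E12.5 and at 0.732 and 0.831 times in males at E15.5, where Dnmt3a was the higher of the pair. In females at E15.5 Dnmt3b was 3.91 and 6.54 times the level of Dnmt3a, the latter in the library with Dnmt3a at 0.464 RPKM. With 1 added to each RPKM, these log2 ratios were 1.61 and 1.46. Dnmt1 and Uhrf1 differed as well: Uhrf1 was the higher in all 6 epiblast libraries, at 1.23 to 1.79 times Dnmt1, and Dnmt1 was the higher in every PGC library outside E11.5. The widest gap was in males at E15.5, where Dnmt1 was at 3.34 times the level of Uhrf1 in both libraries.

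**Figure D3:**
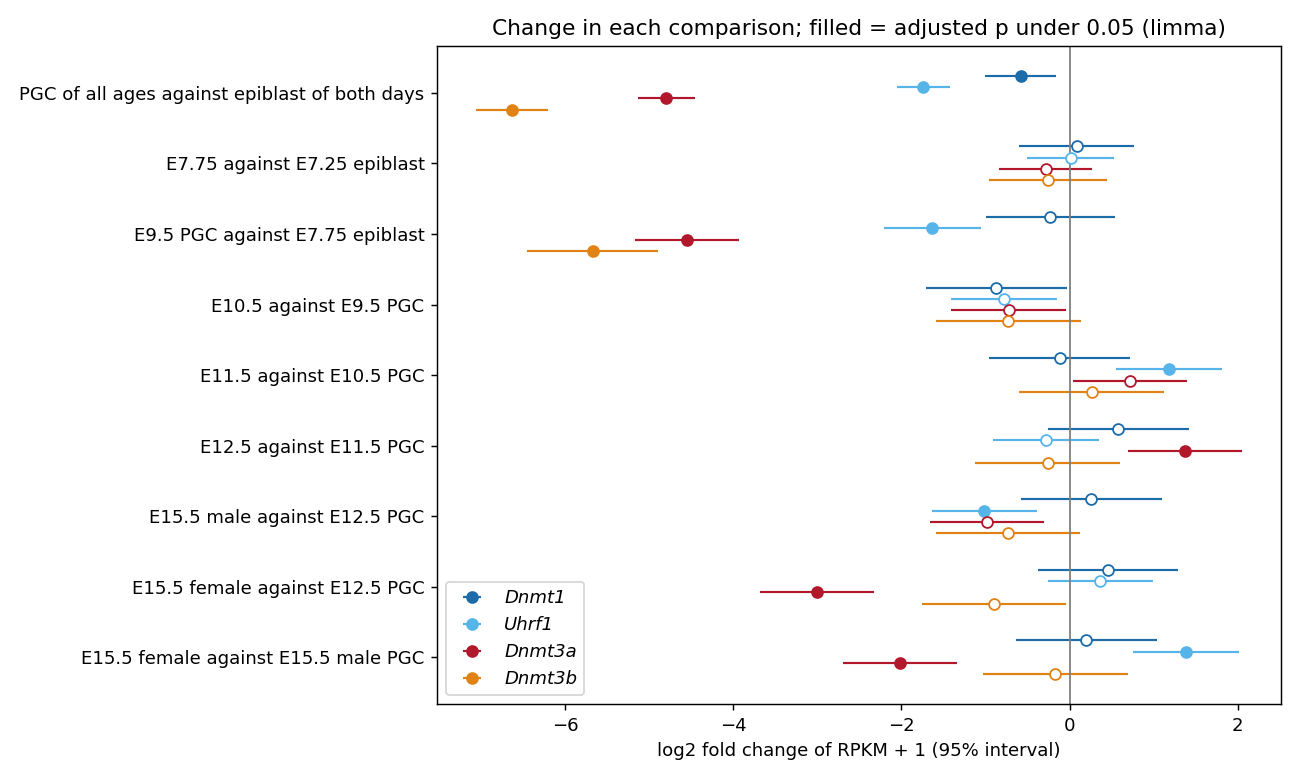
Log2 fold change of RPKM + 1 (horizontal axis) with its 95% interval for 4 genes in 9 comparisons; filled points have a limma adjusted p under the threshold of 0.05, and Dnmt3l is not drawn. Uhrf1, Dnmt3a and Dnmt3b are filled between E7.75 epiblast and E9.5 PGC, and later filled points belong to Uhrf1 and Dnmt3a only.

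The days of epiblast did not separate the 5 genes. None of them passed between E7.25 and E7.75 in limma, and none had an unadjusted p under 0.05; 0.269% of all tested genes passed. Dnmt3a was the one gene whose libraries did not overlap, all lower at E7.75, as in 8.09% of all tested genes, with a log2 difference of -0.29 ± 0.26 and a limma adjusted p of 0.888. Between male and female epiblast none passed either, with log2 differences from -0.42 for Uhrf1 to 0.07 for Dnmt3l, on 1 female library a day; 0.0605% of all tested genes passed there, and none of the 5 had an unadjusted p under 0.05.

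The drop lay between E7.75 epiblast and E9.5 PGC, the earliest PGC measured. Over this step, where 27.6% of all tested genes passed and 11.3% passed as lower, 3 of the 4 genes passed as lower. Dnmt3b was 51.1-fold lower (log2 difference of -5.67 ± 0.37, limma adjusted p of 1.12e-07), Dnmt3a 27.0-fold lower (-4.55 ± 0.29, limma adjusted p of 1.06e-07) and Uhrf1 3.23-fold lower (-1.63 ± 0.27, limma adjusted p of 0.000449). Dnmt1 did not pass, at a log2 difference of -0.23 ± 0.36 (95% interval from -0.99 to 0.53) and a limma adjusted p of 0.696. The E9.5 libraries were also those with the mesoderm markers at 944 and 955 RPKM. All 8 of these markers were detected in 1 of the 2 E9.5 libraries and 7 in the other, led by Msx1 at a mean of 384 RPKM and Hand1 at 253 RPKM. The 7 endothelial and blood markers with a line summed to 109 and 28.1 RPKM, against at most 0.0162 RPKM in epiblast. Of these, 3 were listed at 0 in E9.5 replicate 1 and 5 in replicate 2, with Gata1, Hbb-b1 and Ptprc at 0 in both. The part of all these markers in the differences was not tested.

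From E9.5 to E10.5 none of the 4 passed in limma, where 29.9% of all tested genes passed; 3 of the 4 had an unadjusted p under 0.05, as did 39.8% of all tested genes. Dnmt1 (-0.87 ± 0.39, limma adjusted p of 0.111), Uhrf1 (-0.78 ± 0.29, limma adjusted p of 0.0607) and Dnmt3a (-0.72 ± 0.32, limma adjusted p of 0.103) had both E10.5 libraries below both of E9.5, as did 32.4% of all tested genes. The median of all tested genes was itself -0.16 in this comparison, and the E10.5 libraries were shallow.

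Over all 15 pairs of PGC stages, 22.1% of the tests over all genes passed in limma. Dnmt3a passed in 9 pairs, Uhrf1 in 7, Dnmt3b in 3 and Dnmt1 in 0. The 15 pairs reuse the same libraries, so they are not separate results, and Dnmt3a passed in every pair that holds female E15.5. An unadjusted p under 0.05 was reached in 12 pairs for Dnmt3a, 8 for Uhrf1, 6 for Dnmt3b and 4 for Dnmt1. Over all genes 33.4% of the tests reached it. Between successive ages the changes that passed were in Uhrf1 and Dnmt3a. Uhrf1 rose 2.35-fold from E10.5 to E11.5 (log2 difference of 1.18 ± 0.29, limma adjusted p of 0.0283), where 7.19% of all tested genes passed and 3.59% passed as higher. The call was lost without either E11.5 library or without replicate 1 of E10.5, where the log2 difference was between 0.89 and 1.38. Dnmt3a rose 2.86-fold from E11.5 to E12.5 (1.37 ± 0.32, limma adjusted p of 0.0189), where 7.21% passed and 4.12% passed as higher. That call was lost without any 1 of the 4 libraries compared, at differences of 1.28 to 1.46. Both E11.5 libraries lay above both of E10.5 for Uhrf1, as in 24.5% of all genes. Both of E12.5 lay above both of E11.5 for Dnmt3a, as in 32.3%. The other 3 genes did not pass in either step. Relative depth was 22.9% and 22.4% at E11.5 and 101% and 113% at E12.5, so depth and age cannot be told apart in the rise of Dnmt3a.

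At E15.5 male and female PGC differed in Uhrf1 and Dnmt3a as well. In males Uhrf1 was 2.11-fold lower than at E12.5 (-1.01 ± 0.29, limma adjusted p of 0.0467), the 1 gene of the 4 to pass where 8.73% of all genes did and 5.15% passed as lower. Dnmt3a was 2.105-fold lower, with a log2 difference of -0.99 ± 0.32 and a limma adjusted p of 0.0728. The call for Uhrf1 sat at the threshold and was lost without 12 of the 18 libraries taken one at a time, at differences of -1.24 to -0.79. In females Dnmt3a was 11.9-fold lower than at E12.5 (-3.00 ± 0.32, limma adjusted p of 2.61e-05), again the 1 gene of the 4 to pass, where 18.4% of all genes did and 9.84% passed as lower. The size rests on which female library is kept: the difference was -3.60 without female replicate 1 and -2.41 without female replicate 2, and passed in both. Dnmt3b did not pass (-0.90 ± 0.40, limma adjusted p of 0.141), and without female replicate 1 this difference was -1.57 and passed. Male and female values share the E12.5 libraries, so the sexes were also compared with each other.

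At E15.5 females had 2.82-fold more Uhrf1 than males (1.38 ± 0.29, limma adjusted p of 0.00883) and 5.66-fold less Dnmt3a (-2.02 ± 0.32, limma adjusted p of 0.00122). In this comparison 9.68% of all tested genes passed, 4.33% as higher in females and 5.35% as lower. Both female libraries lay above both male libraries for Uhrf1, as in 26.5% of all tested genes, and below them for Dnmt3a, as in 23.9%. Dnmt1 (0.20 ± 0.39, 95% interval from -0.64 to 1.04, limma adjusted p of 0.851) and Dnmt3b (-0.17 ± 0.40, 95% interval from -1.03 to 0.69, limma adjusted p of 0.883) did not pass, and Dnmt3l was listed at 0 in all 4 libraries. The call for Uhrf1 was lost without female replicate 1 (limma adjusted p of 0.0893) or male replicate 1 (limma adjusted p of 0.0947), and that for Dnmt3a was kept with each library left out in turn, at -2.61 without female replicate 1 and -1.42 without female replicate 2. Set against the sex differences in epiblast by an interaction term, the sex differences at E15.5 differed for Uhrf1 and Dnmt3a, 2 of the 4 genes, where 2.91% of all tested genes passed. When limma was fitted on these 4 libraries alone, neither passed, with adjusted p of 0.184 for Uhrf1 and 0.187 for Dnmt3a, and that fit called none of all tested genes, with 3183 at an unadjusted p under 0.05. The spread between replicates, as the median absolute log2 difference, was 0.332 in females and 0.246 in males at E15.5, and elsewhere 0.404 at E9.5, 0.335 at E10.5 and 0.221 to 0.240 in epiblast, E11.5 and E12.5. Gonadal somatic markers summed to 2.63 and 5.09 RPKM in females and 8.81 and 7.90 RPKM in males. The mesoderm markers summed to 327 and 259 RPKM in females and 84.5 and 89.9 RPKM in males, most of it from Msx1 in females (a mean of 250 RPKM); their part in the sex differences was not tested.

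The wider machinery was followed in 6 gene lists, each given as the number that passed in limma and the median log2 difference. For PGC against epiblast these stand beside all tested genes, of which 32.1% passed as higher and 26.4% as lower, with a median of 0.09. Partners of maintenance methylation had a median of -0.06 between PGC and epiblast, with 2 of 7 tested members higher and 3 lower. Cdca7, which takes the chromatin remodeller Hells to DNA, fell most, from 198 to 76.6 RPKM (-1.37 ± 0.07, limma adjusted p of 7.96e-10). Dmap1, a binding partner of Dnmt1, rose most, from 28.4 to 66.6 RPKM (1.13 ± 0.12, limma adjusted p of 1.44e-06). Pcna, the replication clamp that also binds Dnmt1, was at 583 RPKM in epiblast and 562 RPKM in PGC and did not pass. Hells was not tested, since it was listed at 1.13 RPKM or less in every library, and Pclaf had no line.

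Uhrf2, a relative of Uhrf1 that does not take its place in maintenance, followed another course. Epiblast held 45.5 to 58.0 RPKM, and the 2 libraries of E9.5, at 68.3 and 65.9 RPKM, were the highest of all. At E10.5 it was at 37.4 and 37.8 RPKM, a fall of 0.82 on the log2 scale (limma adjusted p of 0.00186), and by E15.5 at 31.2 and 39.2 RPKM in males and 21.6 and 20.4 RPKM in females. Females thus had less Uhrf2 than males (-0.71 ± 0.16, limma adjusted p of 0.0138) where they had more Uhrf1. Between PGC and epiblast Uhrf2 differed by -0.45 ± 0.08 (limma adjusted p of 0.000262).

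Genes that supply the methyl donor S-adenosylmethionine had 8 of 14 lower in PGC, 5 higher and a median of -0.41. Shmt2, a mitochondrial enzyme of one-carbon metabolism, went from 224 to 94.7 RPKM (-1.30 ± 0.08, limma adjusted p of 6.55e-09). Mat2a, which makes S-adenosylmethionine, went from 103 to 42.8 RPKM and Ahcy, which clears its product, from 118 to 51.4 RPKM. Mtrr, which keeps methionine synthase active, had the largest rise of the list (0.98 ± 0.14, limma adjusted p of 2.61e-05). Over the step to E9.5, 4 of the 14 fell, led by Ahcy (-1.34), and 2 rose, led by Mtrr (0.84), where 11.3% of all tested genes passed as lower and 16.3% as higher. In females at E15.5 Shmt2 was lower than in males, at 42.1 against 105 RPKM (-1.30 ± 0.16, limma adjusted p of 0.00018), and the other 13 did not pass.

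Of 8 tested genes from a list of readers of methylated CpG and relatives of such readers, 4 were higher in PGC and 4 did not pass. Their median was 0.35, and 1 of the 8 passed the filter through PGC libraries alone. Mbd2 rose most, from 7.18 to 16.8 RPKM in the epiblast libraries to 18.1 to 53.2 RPKM in PGC (1.55 ± 0.16, limma adjusted p of 1.82e-06), and was already higher at E9.5 (2.11 ± 0.30). The list had no member that passed between the sexes at E15.5 in limma, nor any with an unadjusted p under 0.05. Of 16 tested chromatin factors that guide DNA methylation, 3 were higher in PGC and 5 lower, with a median of 0.08. Of these 16, 1 passed the filter through PGC libraries alone. Trim28, which silences marked chromatin, fell from 622 to 322 RPKM (-0.95 ± 0.05, limma adjusted p of 2.59e-09), and Zfp57, a zinc finger protein of imprinted loci, had the largest fall of the list (-1.61 ± 0.34, limma adjusted p of 0.001). Zfp57 was at a mean of 5.75 RPKM at E7.25, 11.7 at E7.75 and 17.6 at E9.5, and then at 5.003 at E10.5 and 0.269 to 1.39 RPKM at later ages, so the mean at E9.5 lay above both days of epiblast.

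Dppa3, known to keep Uhrf1 from chromatin in oocytes, went up and down within PGC. Its rise over epiblast was the largest of the chromatin list, but its direction was fixed, since Dppa3 passed the filter through PGC libraries alone. It was listed at 0 in all 6 epiblast libraries, at 0.106 and 31.3 RPKM at E9.5, at 0.537 and 0 at E10.5, and at 0.485 and 0.498 at E11.5. At E12.5 it was at 85.7 and 81.7 RPKM, and at E15.5 at 0.389 and 0.401 RPKM in males and at 49.5 and 73.8 RPKM in females. The 2 sexes at E15.5 thus differed in Dppa3 (5.46 ± 0.97, limma adjusted p of 0.00295) as in Uhrf1, both higher in females. Its 2 libraries of E9.5 disagree, and how the authors' counting shared reads between copies of this gene is not given, so its level is uncertain.

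DNA replication genes were followed because Dnmt1 and Uhrf1 are known to work at the replication fork; of 26 tested genes, 8 were higher and 8 lower in PGC and 10 did not pass, with a median of -0.05, and the 26 summed to 2826 to 3828 RPKM over all 18 libraries. Ccne1, a cyclin that starts S phase, had the largest fall, at 145 to 209 RPKM in epiblast and 19.4 to 42.7 RPKM in PGC (-2.50 ± 0.10, limma adjusted p of 1.15e-10). Slbp, which binds histone messenger RNA, had the largest rise (1.11 ± 0.10, limma adjusted p of 3.18e-07). In females at E15.5, 3 of the 26 were lower than in males, led by Mcm2 of the replication helicase (-1.02 ± 0.26, limma adjusted p of 0.0215), beside 5.35% of all genes that passed as lower, and Ccna2 was higher (0.39 ± 0.11, limma adjusted p of 0.0352).

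Germ line genes known for DNA methylation at their promoters were followed from E7.75 epiblast to E9.5, where 1 of 17 tested genes rose, 3 fell and the median was -0.21, beside 16.3% of all tested genes that passed as higher and 11.3% as lower. Brdt, a bromodomain protein of the germ line, rose (1.15 ± 0.33, limma adjusted p of 0.0164), and Ddx4, a germ cell RNA helicase, had the largest fall (-1.80 ± 0.46, limma adjusted p of 0.00991). From E9.5 to E10.5, 9 of the 17 passed as higher, where 11.5% of all genes did. From E10.5 to E11.5 it was 7 of 17, beside 3.59% of all genes, and from E11.5 to E12.5 it was 3 of 17, beside 4.12%. By E15.5 it was 7 of 17 in males, beside 3.58%, and 10 of 17 in females, beside 8.60%. None of the 17 passed as lower in these 5 comparisons. Genes at 0 RPKM at the start of a step could not fall, as for Sycp1 and Slc25a31 at E9.5 and Mael, Sycp3 and Tex11 at E10.5. Of the 17, 5 passed the filter through PGC libraries alone, which bears on the counts of these steps. Over all PGC against epiblast each of the 17 was higher, with a median of 2.35, although for those 5 the filter fixes the direction. The largest rise was in Dazl, an RNA-binding protein of germ cells (5.87 ± 0.20, limma adjusted p of 2.56e-11). Dazl was at 0.0451 and 0.310 RPKM at E9.5, at 7.31 and 12.6 at E10.5, at 87.2 and 110 at E11.5, at 394 and 369 at E12.5 and at 938 to 1069 RPKM at E15.5. Between the sexes none of the 17 passed in limma, and 3 had an unadjusted p under 0.05, as did 23.0% of all tested genes.

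**Figure D4:**
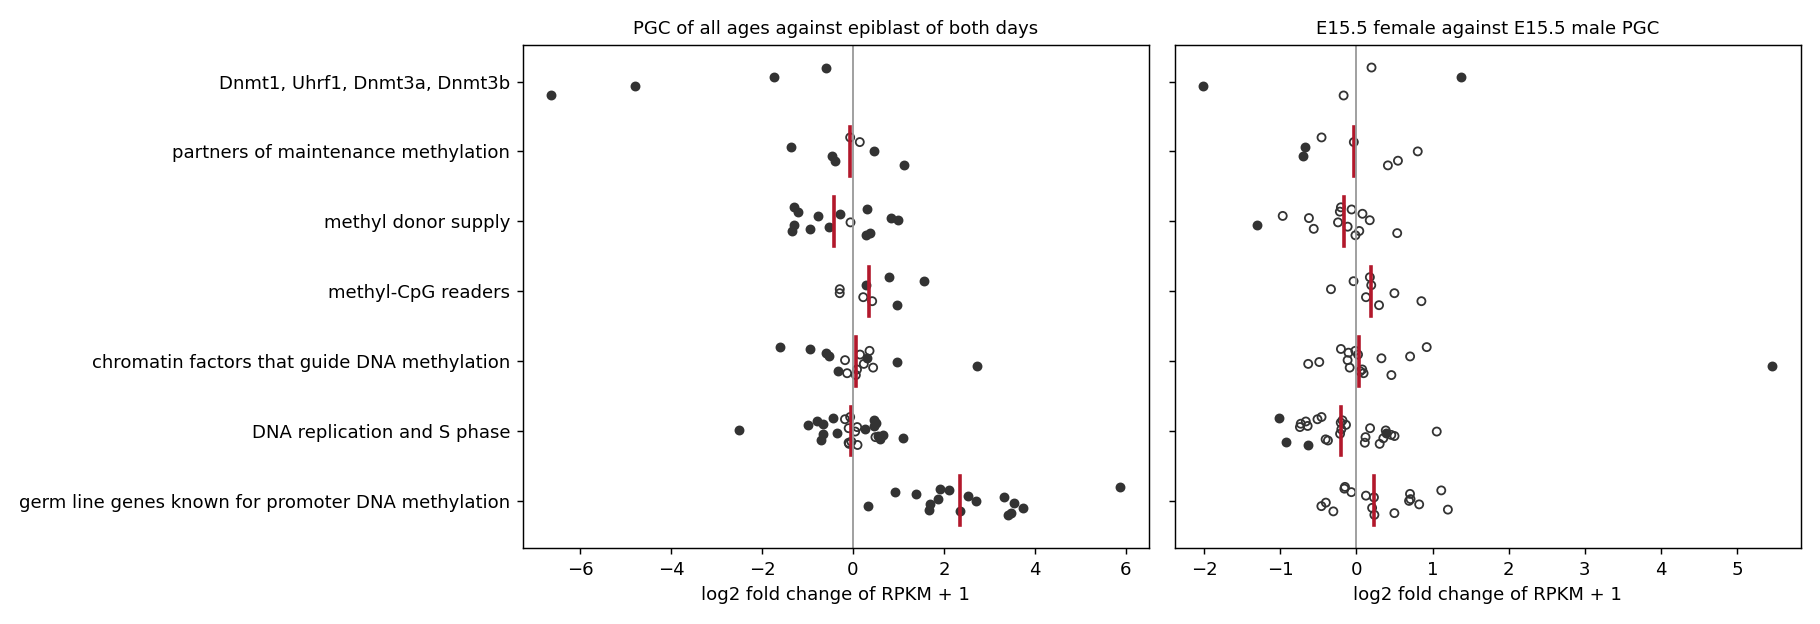
Log2 fold change of RPKM + 1 (horizontal axis) of every tested gene of the 6 lists and, in the top row, of Dnmt1, Uhrf1, Dnmt3a and Dnmt3b, for PGC against epiblast (left) and female against male PGC at E15.5 (right); filled points have a limma adjusted p under 0.05 and red bars are list medians. At left the medians are -0.06 for maintenance partners, -0.05 for replication genes and 2.35 for germ line genes.

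The genes most like each of the 5 in level were taken by Pearson's r of log2(RPKM + 1) over the 18 libraries, among 8857 genes whose stage mean reached 10 RPKM at some stage. Dnmt3b was most like Dnmt3l (r = 0.988), Ccne1 (r = 0.988) and Fam131b (r = 0.981), and Dnmt3l was most like Fam131b (r = 0.995), Dnmt3b and Sncb (r = 0.985). For Dnmt3a these were Trim28 (r = 0.974), Txnrd1 (r = 0.968) and Cldn3 (r = 0.963), and for Uhrf1 Itga6 (r = 0.946), Gclc (r = 0.933) and AABR07049887.1 (r = 0.917). Dnmt1 had the loosest matches, with Robo1 (r = 0.862), Ehmt1 (r = 0.859) and AC106292.2 (r = 0.858). Each r is a description: the points share libraries and depth, and epiblast and PGC form separate clusters for all genes but Dnmt1. Within the 12 PGC libraries Dnmt3b and Ccne1 had r = 0.846, Dnmt3a and Trim28 0.785, Dnmt3b and Dnmt3l 0.573, and Dnmt3b and Fam131b 0.111. Other genes were closer there, with a highest r of 0.921 for Dnmt3b and 0.942 for Dnmt3a. The value for Dnmt3l rests on few libraries, since Dnmt3l was listed at 0 in 10 of the 12. Its highest PGC level (0.797 RPKM) and that of Dnmt3b (26.2 RPKM) were both in E9.5 replicate 2. Between the maintenance pair, Dnmt1 and Uhrf1, r was 0.567 over 18 libraries and 0.266 within PGC. Over 18 libraries Uhrf1 had a higher r with Dnmt3b (0.863), Dnmt3l (0.855) and Dnmt3a (0.786) than with Dnmt1. Within PGC these 3 values were 0.247, 0.083 and -0.122.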

How the data were processed

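Levels in the table deposited by the authors were RPKM, by the table's own name, with 1 column per library. Cufflinks 2.2.1, TopHat2 2.1.0, cutadapt 1.14, bcl2fastq 2.18.0.12 and build rn6 appear in the submitters' processing notes, with no role or order. Annotation release, strand and treatment of multi-mapping reads were not given in the sources used here. Per the labels' protocols, a PicoPure kit served for extraction and SMART-Seq v4 for the libraries. Groups were taken from the sample titles. RPKM divides by the mapped total of a library, so a few abundant genes can shift the rest. The table holds no read counts, so relative depth was estimated from low values, and an interval from counting error cannot be given.

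Values were transformed to log2(RPKM + 1), and the 14865 genes with at least 1 RPKM in at least 2 of 18 libraries entered linear models of limma 3.58.1 (R 4.3.3) whose variance prior follows the mean level, in 8 stage groups with 10 residual degrees of freedom. Adjusted p-values are from the Benjamini-Hochberg method over all tested genes within a comparison, at 0.05; a fold is a ratio of mean RPKM, and log2 differences understate the change of low genes. Sexes in epiblast, and the difference of the sex differences, were fitted in 10 groups. The fit was tested on simulated data. Motifs were counted in Python 3.11.15 and figures drawn with matplotlib 3.10.9.

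The 5 genes, the gene lists, the tests and the alternatives were chosen with earlier results of these data known. Named genes are the 5 in every comparison; the 3 genes most like each; Dppa3 and Uhrf2; and from each list the largest rise and the largest fall that passed between PGC and epiblast, between E9.5 and E7.75, and between the sexes at E15.5; 1 gene that the rule names is not reported here. Others (Pcna, Hells, Mat2a, Ahcy, Shmt2 and Trim28 outside that rule, and marker genes) were named after their values were seen. Alternatives were another pseudocount, no filter, quantile normalization, median ratio scaling, a variance without a trend, only the libraries compared, a replicate block and each library left out. Leaving out E9.5, or E10.5 and E11.5, and the settings for Dnmt3b between PGC ages that do not follow each other were added after seeing the data.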

Additional observations from a re-analysis of the deposited data

Results flagged for a closer look

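For Uhrf1 and Dnmt3a, 2 of the 4 genes compared, the difference between females and males at E15.5 differed from that in epiblast, by an interaction term in a limma fit of 10 groups in which 2.91% of all tested genes passed. For Uhrf1 the sex difference was 1.80 higher on the log2 scale at E15.5 than in epiblast (SE 0.37, limma adjusted p of 0.0254): it was 1.38 at E15.5, with both female libraries above both male ones, and -0.42 in epiblast. For Dnmt3a the value was -2.03 (SE 0.45, limma adjusted p of 0.0352): the sex difference was -2.02 at E15.5 and 0.02 in epiblast. Epiblast gave 1 female library a day, so its sex difference rests on 2 female libraries. For Dnmt1 (0.52, limma adjusted p of 0.724) and Dnmt3b (-0.18, limma adjusted p of 0.932) the term did not pass.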

How the results depend on the processing

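Of the 37 values (4 genes in 9 comparisons, and Dnmt3l between the days of epiblast), median ratio scaling changed no call, and no setting other than leaving out a library turned a direction. Fitting only the libraries compared ended 6 calls: Uhrf1 from E10.5 to E11.5 (1.18, limma adjusted p of 0.276), Dnmt3a from E11.5 to E12.5 (1.37, 0.0792), Uhrf1 from E12.5 to male E15.5 (-1.01, 0.138), Dnmt3a from E12.5 to female E15.5 (-3.00, 0.0713), and Dnmt3a (-2.02, 0.187) and Uhrf1 (1.38, 0.184) between the sexes, which left 0 genes called in these 5 comparisons. That setting called 0 of all genes between the sexes, from E11.5 to E12.5 and from E9.5 to E10.5, where 3183, 3707 and 3544 had an unadjusted p under 0.05 and the fit on all libraries called 1439, 1072 and 4443. Quantile normalization ended Uhrf1 from E10.5 to E11.5 (1.01, 0.0541) and to male E15.5 (-0.93, 0.0517), and a pseudocount of 0.1 ended Dnmt3a from E11.5 to E12.5 (1.500, 0.0835) and Uhrf1 to male E15.5 (-1.08, 0.0532), each leaving 0 called. Uhrf1 to male E15.5 was also lost with no filter (-1.01, 0.0661) and with no variance trend (-1.01, 0.0658), again 0 called. Without E10.5 and E11.5, Dnmt1 between PGC and epiblast was -0.32 (0.149). The cause of these changes was not tested.

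The replicate numbers did not pair the libraries: the correlation of deviations was -0.13 to 0.06 over 28 pairs of groups, with 0 above 0.1. With a replicate block 12 of 13 calls were kept, and Uhrf1 to male E15.5 was -1.01 with a limma adjusted p of 0.0602, leaving 0 called.

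Leaving out each library in turn changed no call or direction for 20 of the 37 values. Among the called values, Dnmt1 between PGC and epiblast ranged from -0.68 to -0.48, Uhrf1 from 0.89 to 1.47 at E11.5, from -1.24 to -0.79 at male E15.5 and from 1.02 to 1.74 between the sexes, and Dnmt3a from 1.28 to 1.46 at E12.5, from -3.60 to -2.41 at female E15.5 and from -2.61 to -1.42 between the sexes. Dnmt3b ranged from -1.91 to -1.004 between male E15.5 and E9.5, from -2.30 to -0.96 between female E15.5 and E9.5 and from -1.83 to -0.49 between female E15.5 and E11.5; these 3 pairs were examined after seeing the data, and all were lost when only the libraries compared were fitted (limma adjusted p of 0.126, 0.225 and 0.294). The last was also lost with no filter (0.0800), with no variance trend (0.0647) and with a replicate block (0.0542), and without 13 of the 18 libraries taken one at a time. Values that passed only without some library were, from E9.5 to E10.5, Dnmt1 (-1.45 to -0.30), Uhrf1 (-1.07 to -0.49) and Dnmt3a (-1.06 to -0.39), Dnmt3a at male E15.5 (-1.08 to -0.89) and Dnmt3b at female E15.5 (-1.57 to -0.23). The sign turned in values that had not passed: Dnmt1 at E7.75 (-0.075 to 0.25), E11.5 (-0.69 to 0.46), female E15.5 (-0.14 to 1.05) and between the sexes (-0.40 to 0.79), Uhrf1 at E7.75 (-0.16 to 0.14), and Dnmt3b at E11.5 (-0.23 to 0.75) and between the sexes (-0.84 to 0.50). The number of genes called ranged from 0 to 2 from E9.5 to E10.5 and at male E15.5, from 0 to 1 at E11.5 and E12.5, and from 1 to 2 at female E15.5 and between the sexes. Low depth at E10.5 and E11.5 limits the low values there. Dnmt3a and Dnmt3l had the lowest means of the genes described at both ages, and the effect of depth on them was not tested.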
